A study of Mus musculus with 16 samples.

Results

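Gene expression was compared between CD45+ cells of bone marrow and CD45+ cells of spleen, 4 h after an injection of clozapine N-oxide (CNO), in mice whose brainstem neurons carried the designer receptor hM3Dq. The 4 marrow libraries and the 4 spleen libraries of these mice (replicates 5 to 8 in each tissue) were chosen by their labels alone, 8 of the 16 libraries of the series, and all genes were taken. The mice were Dbh-Cre animals of the C57BL/6J strain, 12 weeks old. They had received AAV-DIO-hM3Dq-mCherry on both sides of the VLM, a noradrenergic and adrenergic region of the ventrolateral medulla. Cre is driven by Dbh, the gene of dopamine beta-hydroxylase, so that receptor and mCherry are made in catecholaminergic neurons at the injected site. Their transcripts are made in the brain and give no check on the leukocytes. The remaining 8 libraries, 4 of marrow and 4 of spleen (replicates 1 to 4), came from Dbh-Cre mice of the same strain and age that received AAV-DIO-mCherry and the same CNO. They serve below only to show where the tissue difference itself differed. The labels speak of biological replicates without tying a library to a mouse. The sort kept cells that carry CD45, the product of Ptprc, found on nearly all nucleated cells of the blood lineage.

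Bone marrow is where blood cells are made. Stem and progenitor cells there divide and pass through ordered stages, and neutrophil precursors load their granules in sequence, primary granules first, then secondary ones. B cells are also built there, under RAG recombinases and a surrogate light chain. The spleen filters blood and houses mature lymphocytes, with T cells, follicular and marginal zone B cells in the white pulp and iron-recycling macrophages in the red pulp. In the mouse the spleen also supports some production of red cells. Chemokine receptors such as CXCR4, whose ligand CXCL12 is made by marrow stroma, hold cells in the marrow. S1PR1, the receptor for sphingosine 1-phosphate, and CCR7 guide lymphocytes out of and into lymphoid tissue.

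Depth was about 13560000, 13860000, 14440000 and 13020000 fragments assigned to genes in marrow and 13010000, 11340000, 12770000 and 16360000 in spleen, lowest in spleen replicate 6 and highest in spleen replicate 8. Levels below are FPKM, fragment counts corrected for the length of the gene and the depth of the library, divided by a TMM factor, which corrects for a few very abundant genes taking up the reads of the rest, and are called scaled FPKM. Log2 differences are marrow minus spleen on the log2 of scaled FPKM plus 0.1, each given with its standard error (SE), 4 libraries against 4. Genes were called with limma's moderated test at an adjusted p (Benjamini-Hochberg, over all genes tested) below 0.05, and "higher" or "lower" is used of called genes. Correlations of log2 levels were 0.967 to 0.987 between libraries of a tissue and 0.806 to 0.875 between tissues. Ptprc itself had 46.2, 39.6, 31.8 and 29.98 scaled FPKM in marrow, against 72.7, 69.3, 60.8 and 62.8 in spleen, and was lower in marrow, by a log2 difference of -0.87 ± 0.14 (adjusted p = 0.000501). The 6 genes of the pan-leukocyte list, Ptprc, Coro1a, Laptm5, Lcp1, Cd53 and Rac2, had 29.98 scaled FPKM or more in all 8 libraries, and together they took 0.511 ± 0.066% of assigned fragments in marrow and 0.486 ± 0.027% in spleen (SD, n = 4 each). Ptprc was the only lower member, while 3 members were higher in marrow and 2 were not called (list median 0.27). Of all genes tested, 33.9% were higher and 31.6% lower. Spleen replicate 6 and marrow replicates 5 and 6 stood apart by their low haemoglobin, whose share of fragments was 0.564, 0.391, 2.27 and 2.38% in marrow and 1.21, 0.133, 1.17 and 1.33% in spleen. Spleen replicate 6 was also the lowest spleen library for the granule transcripts of neutrophils and for most of those of dividing cells.

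The tissues differed across most of the transcriptome. Of 16770 genes tested, 10984 (65.5%) were called, 5687 higher in marrow (33.9%) and 5297 lower (31.6%). With a difference of at least 2-fold as well, 4782 genes (28.5%) were called, of which 2533 (15.1%) were higher and 2249 (13.4%) lower. The libraries of the tissues did not overlap for 10213 genes (60.9%), with all marrow libraries above for 5337 (31.8%) and all below for 4876 (29.1%). Differences of 16-fold or more were found for 48 higher and 76 lower genes. The median log2 difference over all genes tested was 0.016, and 4167 genes (24.8%) had a 95% interval that lay inside 1.5-fold in both directions. Without the TMM scaling, 4155 genes were called higher and 7107 lower, since the median of all genes then moved by -0.232, so differences are read relative to that median. Gene lists are described by their members that passed a filter of 10 reads in 4 libraries. Some members failed in the lists of resident macrophages (18 of 19 passed) and of eosinophils, basophils and mast cells (15 of 16). So they did for stem and progenitor cells (19 of 21), pro-B and pre-B cells (10 of 12) and conventional dendritic cells (16 of 17). Further members failed for stroma and endothelium (13 of 22), chemokines and niche ligands (15 of 19) and glucocorticoid-induced genes (21 of 22). Of 33 erythroid genes listed, 32 were matched to a symbol, and all of these passed. In the remaining lists all members passed. A low gene that passed through 1 tissue alone had to differ, so list counts and medians are descriptions. Every list count below is to be read beside the shares of all genes tested, 33.9% higher and 31.6% lower. With any 1 marrow library left out, fewer pro-B and pre-B genes (7), stem and progenitor genes (18) and stromal genes (11) passed. With any 1 spleen library left out, fewer chemokine and niche ligand genes (12), conventional dendritic cell genes (15), lineage factors (38) and T cell genes (29) passed, and for cytotoxic genes 16 passed without marrow replicate 5 or spleen replicate 5, 6 or 7. Because the RNA is of sorted but mixed cells, fewer cells of a type and less RNA per cell cannot be told apart.

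**Figure D1:**
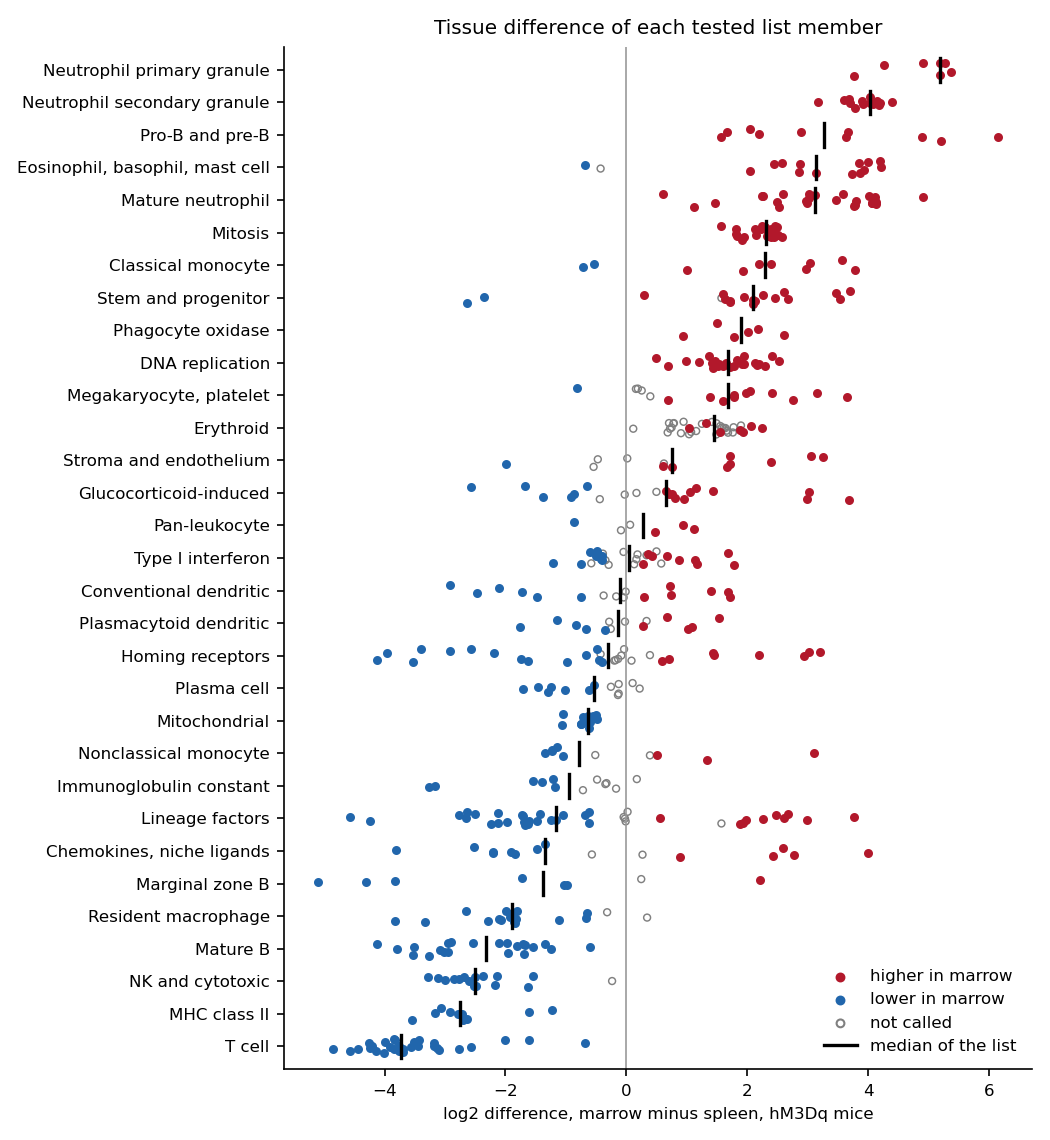
Log2 difference of marrow minus spleen in hM3Dq mice for each tested member of 31 gene lists, with lists ordered by their median. Filled points are called genes, red higher and blue lower in marrow, open points were not called, and the black bar is the list's median. Lists of neutrophil, B precursor, eosinophil and dividing-cell genes lie to the right, and T cell, MHC class II, NK and mature B cell lists to the left.

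Neutrophil granule genes were the most marrow-biased of the lists. All 7 primary granule genes tested were higher, with a median log2 difference of 5.18, as were all 15 secondary granule genes (median 4.03), where 33.9% of all genes tested were higher and the all-gene median was 0.016. Elane (ENSMUSG00000020125, chr10:79886247-79888215, plus strand), neutrophil elastase, had 427, 643, 523 and 574 scaled FPKM in marrow, against 14.7, 7.25, 18.7 and 13.5 in spleen. The groups were far apart, with a log2 difference of 5.37 ± 0.26 (adjusted p = 4.92e-07). Mpo, the myeloperoxidase that makes hypochlorous acid, had 379, 579, 403 and 484 scaled FPKM in marrow, against 13.7, 7.93, 16.2 and 13.3 in spleen (5.19 ± 0.22). The serine proteases Prtn3 (5.18 ± 0.21) and Ctsg (5.26 ± 0.25) of the same granule had differences within 1 SE of that of Mpo. The smallest difference of the list was that of Prss57, a granule protease, at 3.77 ± 0.23. Among secondary granule genes, Ltf, the iron-binding lactoferrin, had 2487, 2328, 2406 and 1795 scaled FPKM in marrow, against 216, 81.3, 151 and 187 in spleen (3.91 ± 0.28). Camp, which encodes the cathelicidin antimicrobial peptide, had 3812, 3823, 4635 and 3387 scaled FPKM in marrow, against 283, 113, 238 and 273 in spleen (4.19 ± 0.28). Mmp8, the neutrophil collagenase, had the largest difference of that list, 4.39 ± 0.24, and Abca13, a transporter, the smallest, 3.17 ± 0.23. In both lists spleen replicate 6 was the lowest library, and without it the secondary granule median was 3.70, still with all 15 genes higher.

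Genes of mature neutrophils were higher in marrow too, though by a wider range. All 25 were called higher, with a median of 3.12 and a range of 0.60 to 4.91. S100a9 (ENSMUSG00000056071, chr3:90692632-90695721, minus strand), a calprotectin subunit, was the most abundant transcript in marrow, with 30210, 27440, 28090 and 21290 scaled FPKM in marrow, against 2348, 892, 1606 and 1858 in spleen (4.07 ± 0.32, adjusted p = 5.39e-06). Retnlg, a resistin-like secreted protein, had 2917, 3422, 3377 and 2824 scaled FPKM in marrow, against 138, 67.3, 105 and 119 in spleen. It had the largest difference of the list, 4.91 ± 0.21. Ly6g, the surface marker by which mouse neutrophils are sorted, had 222, 160, 196 and 132 scaled FPKM in marrow, against 19.1, 4.46, 11.4 and 11.7 in spleen (4.07 ± 0.38). Cxcr2, the receptor that draws neutrophils into blood, differed less, by 3.02 ± 0.19, and Csf3r, the receptor for granulocyte colony-stimulating factor, by 2.25 ± 0.18. Il1b, the inflammatory cytokine, had 19.1, 24.1, 15.6 and 18.3 scaled FPKM in marrow, against 15.6, 15.02, 7.92 and 13.2 in spleen, with overlapping libraries and the smallest difference, 0.597 ± 0.22 (adjusted p = 0.0369). All 6 genes of the phagocyte oxidase were higher, with a median of 1.89. They ran from Ncf1, an organizer subunit (2.598 ± 0.18), and Cybb, the catalytic subunit (2.01 ± 0.16), to Rac2, a GTPase shared with other leukocytes (0.94 ± 0.097). The granule lists together took a much larger part of the RNA in marrow. Secondary granule genes held 3.78 ± 0.42% of fragments there, against 0.297 ± 0.097% in spleen (SD, n = 4 each). An exact permutation test gave a two-sided p of 0.0286, the smallest that 4 against 4 allows (adjusted p = 0.0407 over 37 measures). The lists were chosen with earlier results of these data known, so these p-values add no independent support.

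**Figure D2:**
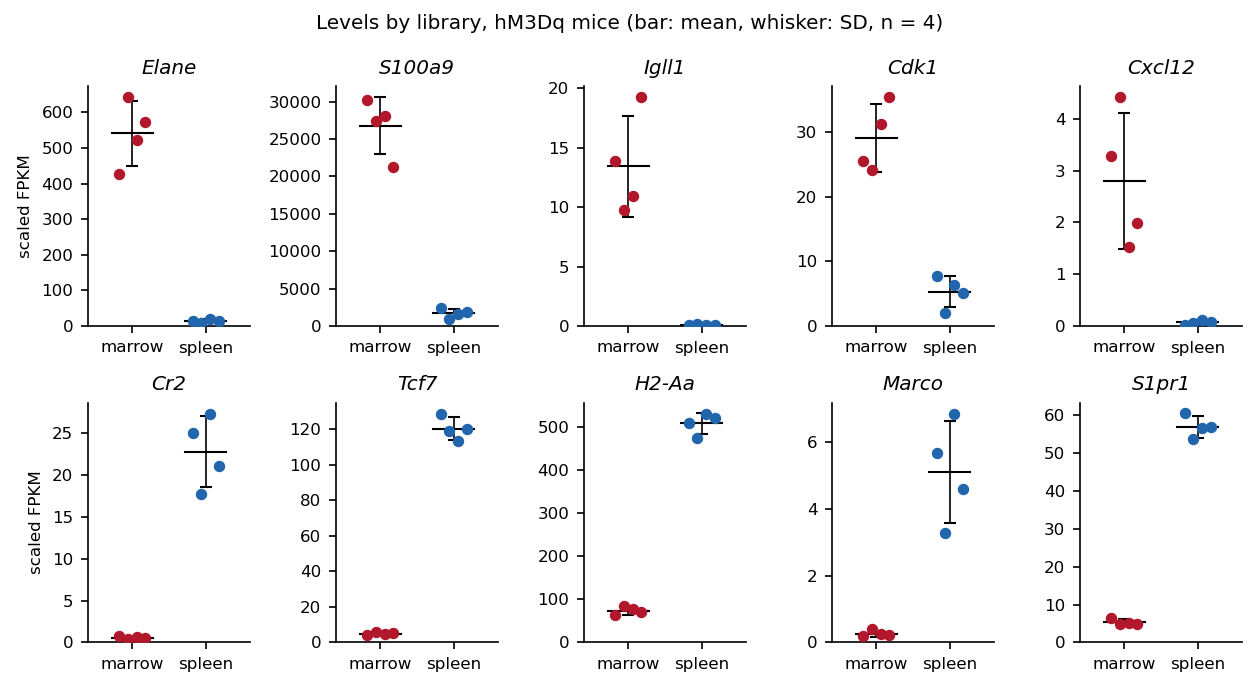
Scaled FPKM of 10 genes in each hM3Dq library, marrow in red on the left and spleen in blue on the right of each panel, with the mean (bar) and SD (whisker) of 4 libraries on a linear axis from 0. In the upper row all marrow libraries lie above all spleen libraries, and in the lower row all lie below.

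Most classical monocyte genes were higher in marrow, and genes of nonclassical monocytes went both ways. Of 10 classical monocyte genes, 8 were higher and 2 lower (median 2.30). Ly6c2, the surface antigen of classical monocytes, had 257, 274, 275 and 225 scaled FPKM in marrow, against 35.6, 23.6, 34.4 and 32.3 in spleen (3.04 ± 0.14). F13a1, a coagulation factor subunit carried by monocytes, differed by 3.57 ± 0.21, and Ccr2, the chemokine receptor needed for monocytes to leave the marrow, by 2.199 ± 0.18. The 2 lower members were Ms4a4c (-0.72 ± 0.19) and Csf1r, the receptor for macrophage colony-stimulating factor (-0.54 ± 0.14). Of 10 nonclassical monocyte genes, 3 were higher and 5 lower (median -0.78), where 33.9% of all genes tested were higher and 31.6% lower. The lower ones included Nr4a1, the nuclear receptor on which this subset depends in the mouse, with 8.18, 5.08, 4.28 and 5.72 scaled FPKM in marrow, against 18.4, 12.7, 10.5 and 13.1 in spleen (-1.23 ± 0.22). Cd300e (-1.35 ± 0.22) and Ace, angiotensin-converting enzyme (-1.23 ± 0.22), were lower as well. The largest of the higher ones, Ear2 (3.11 ± 0.30), belongs to an eosinophil-associated ribonuclease family whose near-identical copies may share reads, so its value is uncertain.

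Of 18 resident macrophage genes tested, 16 were lower in marrow and none higher (median -1.89), where 31.6% of all genes were lower. Marco (ENSMUSG00000026390, chr1:120474538-120505024, minus strand), a scavenger receptor of marginal zone macrophages, had 0.198, 0.391, 0.241 and 0.215 scaled FPKM in marrow, against 5.66, 3.27, 6.84 and 4.597 in spleen (-3.83 ± 0.25, adjusted p = 1.97e-06). Spic, the factor that directs red pulp macrophages, had 0.9503, 1.16, 1.07 and 1.06 scaled FPKM in marrow, against 9.79, 5.797, 7.87 and 5.88 in spleen (-2.65 ± 0.18). Itgad, an integrin of red pulp macrophages, differed by -3.32 ± 0.23. These 3 genes had the largest differences of the list. The complement genes C1qa, C1qb and C1qc, made by resident macrophages, were lower by similar amounts, -1.81 ± 0.20, -1.86 ± 0.198 and -1.995 ± 0.22. Hmox1, which breaks down haem, was also lower (-1.12 ± 0.21). Slc40a1, the iron exporter ferroportin, had 18.2, 22.4, 19.04 and 18.4 scaled FPKM in marrow, against 33.3, 19.5, 25.7 and 20.7 in spleen, with overlapping libraries, and was not called (-0.32 ± 0.16, adjusted p = 0.113). Siglec1, a sialic acid receptor of macrophages in both organs, was not called either (0.34 ± 0.17, adjusted p = 0.101).

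Eosinophil, basophil and mast cell genes were mostly higher in marrow, 13 of 15 tested, with 1 lower and a median of 3.13. Prg2, the eosinophil major basic protein, had 1408, 1049, 1462 and 1337 scaled FPKM in marrow, against 82.6, 33.01, 78.1 and 117 in spleen (4.204 ± 0.33). Epx, eosinophil peroxidase, had 74.9, 57.7, 70.9 and 83.02 scaled FPKM in marrow, against 4.84, 1.67, 4.07 and 6.08 in spleen (4.198 ± 0.34). Both are granule proteins made during maturation. Fcer1a (3.14 ± 0.24) and Ms4a2 (2.44 ± 0.16), chains of the IgE receptor of mast cells and basophils, were higher as well. Il5ra, the receptor for the eosinophil growth factor interleukin 5, was lower, with 2.34, 1.49, 1.66 and 1.899 scaled FPKM in marrow, against 4.302, 2.52, 2.74 and 2.74 in spleen (-0.69 ± 0.198, adjusted p = 0.0127). Ccr3, the eotaxin receptor, was not called (-0.43 ± 0.21, adjusted p = 0.0994), but was lower without spleen replicate 6 (-0.58, adjusted p = 0.0266). Basophil proteases were higher, with Mcpt8 at 96.1, 92.8, 131 and 98.2 scaled FPKM in marrow, against 9.16, 6.23, 8.67 and 7.01 in spleen (3.74 ± 0.15), and Prss34 differing by 3.93 ± 0.18.

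Erythroid genes varied widely between libraries of a tissue. All 32 tested had a positive log2 difference (median 1.45), but 7 were called higher and none lower. That is a smaller share called higher than the 33.9% of all genes tested. Hbb-bs, an adult beta globin, had 2766, 1951, 11400 and 12510 scaled FPKM in marrow, against 5333, 542, 5198 and 5816 in spleen. Marrow replicates 5 and 6 were low, spleen replicate 6 lower still, and the tissues overlapped (0.79 ± 0.89, adjusted p = 0.457). Alas2, the first enzyme of haem synthesis in red cells, followed the same order, with 76.5, 52.97, 284 and 317 scaled FPKM in marrow, against 146, 14.4, 133 and 163 in spleen (0.75 ± 0.87, adjusted p = 0.465). The called genes were Car1, Gata1, Gfi1b, Tfrc, Epor, Klf1 and Cpox. Of these, Car1, a carbonic anhydrase of early red cell precursors, had 73.1, 59.9, 90.5 and 136 scaled FPKM in marrow, against 30.6, 5.71, 29.5 and 20.4 in spleen, with no overlap (2.24 ± 0.51, adjusted p = 0.00364). Gata1, the erythroid master factor, had 11.01, 7.71, 19.98 and 21.2 scaled FPKM in marrow, against 6.6, 1.17, 5.4 and 4.296 in spleen (1.87 ± 0.53, adjusted p = 0.0115). The count of 7 moved with single libraries, being 2 without marrow replicate 7, 2 without marrow replicate 8 and 12 without marrow replicate 6. It was 4 without TMM scaling, 11 with voom weights and 22 with a replicate block, which pairs libraries by number. Without spleen replicate 6 the median was 0.72. Without the 3 libraries of low haemoglobin all 32 were called, but those libraries were picked by a measure of the same genes, so that count is no support for a tissue difference. In the mCherry mice 28 erythroid genes were called higher, and the median there was 1.66. Erythroid levels were lowest in the libraries of low haemoglobin share given above, whose part in the tissue difference was not tested.

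**Figure D3:**
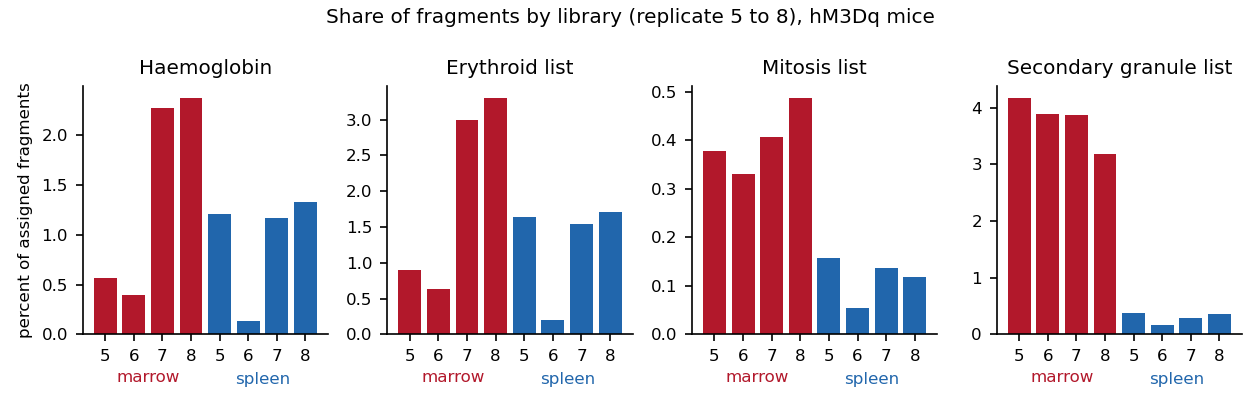
Percent of assigned fragments in haemoglobin genes, the erythroid list, the mitosis list and the secondary granule list, for each hM3Dq library, marrow replicates 5 to 8 in red on the left and spleen replicates 5 to 8 in blue on the right. Haemoglobin and erythroid bars overlap between tissues, while every marrow bar exceeds every spleen bar for mitosis and secondary granules.

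Megakaryocyte and platelet genes were higher in 11 of 16 cases and lower in 1 (median 1.68). Pf4, platelet factor 4, had 18.3, 24.1, 20.8 and 19.8 scaled FPKM in marrow, against 1.78, 1.14, 3.99 and 3.03 in spleen (3.15 ± 0.33). Gp1bb, a subunit of the von Willebrand factor receptor, had 19.97, 16.9, 18.9 and 15.7 scaled FPKM in marrow, against 2.12, 0.917, 1.42 and 1.102 in spleen (3.65 ± 0.22). Clec1b, the podoplanin receptor of platelets, was the lower one (-0.82 ± 0.22). Vwf, von Willebrand factor itself, was not called, with 1.17, 0.984, 0.937 and 0.954 scaled FPKM in marrow, against 1.15, 0.513, 1.16 and 0.826 in spleen (0.19 ± 0.23, adjusted p = 0.493).

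Stem and progenitor genes were higher in marrow, 16 of 19 tested, with 2 lower and a median of 2.10. Cd34, a surface protein of progenitors, had 4.402, 5.44, 4.93 and 4.98 scaled FPKM in marrow, against 0.225, 0.206, 0.424 and 0.323 in spleen (3.71 ± 0.19). Kit, the stem cell factor receptor, had 8.38, 9.01, 7.61 and 8.88 scaled FPKM in marrow, against 2.75, 2.37, 2.82 and 2.19 in spleen (1.71 ± 0.11). Myb, a factor of dividing progenitors, had 22.5, 22.2, 18.9 and 22 scaled FPKM in marrow, against 4.05, 3.84, 3.69 and 3.57 in spleen (2.47 ± 0.087). Hlf, a factor of the stem cell itself, was low in level but higher in marrow, 1.47, 1.31, 1.17 and 1.49 scaled FPKM in marrow, against 0.3304, 0.281, 0.129 and 0.252 in spleen (2.098 ± 0.21). The 2 lower members, Ly6a (Sca-1) and Slamf1 (CD150), are also expressed by lymphocytes. Ly6a had 15.02, 18.5, 17.2 and 13.7 scaled FPKM in marrow, against 85.5, 77.8, 95.95 and 71.9 in spleen (-2.36 ± 0.12), and Slamf1 differed by -2.64 ± 0.19.

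Genes of dividing cells were higher in marrow throughout. All 24 mitosis genes (median 2.31) and all 24 DNA replication genes (median 1.68) were called higher, with no overlap between the tissues for any of them. Cdk1 (ENSMUSG00000019942, chr10:69335146-69352938, minus strand), the kinase that drives entry into mitosis, had 25.5, 24.1, 31.2 and 35.4 scaled FPKM in marrow, against 7.65, 2.05, 6.31 and 5.12 in spleen (2.57 ± 0.36, adjusted p = 0.0002). Top2a, the topoisomerase that untangles sister chromatids, had 55.5, 49.3, 59.1 and 65.4 scaled FPKM in marrow, against 15.8, 6.29, 14.1 and 11.2 in spleen (2.34 ± 0.25). Mki67, which encodes the Ki-67 antigen, had 102, 86.98, 119 and 153 scaled FPKM in marrow, against 52.5, 12.3, 41.2 and 39.01 in spleen (1.82 ± 0.41). Spleen replicate 6 was the lowest library for all 3 of these genes, and without it the mitosis median was 1.92 with 24 genes still higher. In the replication list Uhrf1, which maintains DNA methylation through replication, differed most, by 2.52 ± 0.24, and Cdt1, a licensing factor, least, by 0.49 ± 0.14. Mcm5, a subunit of the replicative helicase, had 42.5, 44.9, 52.8 and 53.5 scaled FPKM in marrow, against 15.6, 10.9, 15.7 and 14.3 in spleen (1.78 ± 0.13). The mitosis list held 0.401 ± 0.066% of fragments in marrow and 0.117 ± 0.044% in spleen (SD, n = 4 each).

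Many mitotic promoters carry a cell cycle genes homology region (CHR), bound by a complex that silences them in resting cells. The letters TTTGAA were found on either strand in 15 of 20 mitosis genes that had a promoter window in RefSeq (GRCm38.p6, 250 bases before to 50 after the start). Of the 27025 genes with a window, 20.2% held them, and of the 20 DNA replication genes with a window 1 did. The 100 bases before the start of 3 mitosis genes are shown, because all of these genes were higher in marrow together, with TTTGAA or its reverse complement in capitals.
Cdk1, chr10:69352913-69353012, minus strand: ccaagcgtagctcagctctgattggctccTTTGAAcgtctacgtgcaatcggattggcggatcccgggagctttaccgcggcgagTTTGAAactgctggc
Cdc20, chr4:118437344-118437443, minus strand: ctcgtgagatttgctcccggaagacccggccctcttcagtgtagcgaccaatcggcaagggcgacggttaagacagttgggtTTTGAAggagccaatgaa
Top2a, chr11:99024190-99024289, minus strand: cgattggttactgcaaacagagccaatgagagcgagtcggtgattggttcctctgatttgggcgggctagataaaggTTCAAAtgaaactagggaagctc
The Cdk1 stretch holds 2 matches on the forward strand, that of Cdc20, which activates the anaphase-promoting complex, holds 1, and that of Top2a holds 1 on the reverse strand. A match is a run of letters and not a measured site. The starts are those of RefSeq and were not checked against these libraries. The Cdk1 stretch overlaps the gene as placed above, and the match nearer the start lies within that gene.

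All 10 pro-B and pre-B genes tested were higher in marrow (median 3.26), and all 22 mature B cell genes were lower (median -2.33). Without any 1 marrow library, 7 pro-B and pre-B genes passed the filter on reads and were higher, with medians of 2.11 to 2.29. Igll1 (ENSMUSG00000075370, chr16:16860671-16863985, minus strand), the lambda 5 part of the surrogate light chain, had 13.9, 9.73, 10.9 and 19.3 scaled FPKM in marrow, against 0.0658, 0.139, 0.0665 and 0.0777 in spleen. It had the largest difference of any list member, 6.15 ± 0.23. Igll1 and Vpreb2 passed the filter on reads through marrow alone and so had to differ, and their values are descriptions. Vpreb2, another surrogate light chain gene, had 3.01, 3.33, 2.52 and 6.37 scaled FPKM in marrow, against 0 in all 4 spleen libraries, at least 32.2-fold higher when spleen is set to 3 reads over the group. Rag1, of the recombinase that joins antigen receptor segments, had 4.68, 10.7, 5.35 and 4.61 scaled FPKM in marrow, against 0.1401, 0.113, 0.109 and 0.0593 in spleen (4.89 ± 0.27). Dntt, the enzyme that adds bases at those joins, had 7.22, 9.05, 9.33 and 17.2 scaled FPKM in marrow, against 1.44, 1.09, 1.32 and 1.29 in spleen (2.89 ± 0.24). Marrow replicate 8 was the highest of the 8 libraries for Igll1, Vpreb2 and Dntt, and marrow replicate 6 for Rag1.

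In mature B cells, Ighd, the constant region of IgD carried by naive cells, had 33.7, 31.6, 30.5 and 27.9 scaled FPKM in marrow, against 314, 285, 322 and 274 in spleen (-3.27 ± 0.087, adjusted p = 3.28e-08). Fcer2a (CD23), a marker of follicular B cells, had 3.49, 2.75, 2.32 and 2.68 scaled FPKM in marrow, against 50.7, 30.4, 42.4 and 37.99 in spleen (-3.79 ± 0.17). Cd79a, a signalling chain of the B cell receptor, differed by -1.67 ± 0.097, and Pax5, the factor that commits cells to the lineage, by -1.69 ± 0.11. Of 8 marginal zone B cell genes, 6 were lower, 1 higher and 1 not called. Cr2 (ENSMUSG00000026616, chr1:195136811-195176716, minus strand), complement receptor 2, had 0.731, 0.436, 0.5997 and 0.5104 scaled FPKM in marrow, against 25.02, 17.7, 27.3 and 21.1 in spleen (-5.09 ± 0.18, adjusted p = 1.13e-07). Dtx1, a target of the Notch signal that makes marginal zone B cells, differed by -3.83 ± 0.13. Cd9, the higher member (2.21 ± 0.14), is a tetraspanin also found on platelets and other cells, and Cd36 was not called (0.25 ± 0.48, adjusted p = 0.666).

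Plasma cell genes were nearer to even, with 7 of 13 lower, none higher and a median of -0.53. Prdm1, the repressor that fixes plasma cell fate and is also active in T cells, had 0.983, 1.21, 1.07 and 1.01 scaled FPKM in marrow, against 3.71, 3.699, 3.75 and 3.59 in spleen (-1.702 ± 0.11). Jchain, the chain that links IgA and IgM units, had 314, 420.3, 355 and 319 scaled FPKM in marrow, against 415, 329.9, 495 and 314 in spleen, and was not called (-0.13 ± 0.16, adjusted p = 0.51). Sdc1 (CD138), a surface marker of plasma cells, was not called either (-0.14 ± 0.16, adjusted p = 0.457). Of 12 immunoglobulin constant genes, 6 were lower and none higher, and 10 were lower without spleen replicate 8. Ighm, of IgM, had 427, 482, 550 and 305 scaled FPKM in marrow, against 1662, 1431, 1346 and 788 in spleen (-1.55 ± 0.26). Ighg3 differed by -3.16 ± 0.46, whereas Igha, of the mucosal IgA class, had 1259, 1819, 1685 and 1417 scaled FPKM in marrow, against 1822, 1368, 2318 and 1522 in spleen, with overlap (-0.17 ± 0.199, adjusted p = 0.467). Constant regions of the IgG classes resemble each other, so reads may be split between them and these values are uncertain.

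The 30 T cell genes had the lowest median of the lists, -3.73, and all were lower in marrow, 1 of them a gene that passed the filter on reads through spleen alone. Tcf7 (ENSMUSG00000000782, chr11:52252371-52283014, minus strand), the factor TCF-1 of naive T cells, had 4.403, 5.65, 4.77 and 5.21 scaled FPKM in marrow, against 129, 119, 113 and 120 in spleen (-4.56 ± 0.09, adjusted p = 2.83e-08). Trac, the constant region of the T cell receptor alpha chain, had 6.18, 7.89, 5.12 and 6.29 scaled FPKM in marrow, against 144, 149, 132 and 131 in spleen (-4.44 ± 0.12). The coreceptors both differed, Cd8a with 1.36, 1.59, 1.23 and 1.64 scaled FPKM in marrow, against 30.1, 28.4, 27.3 and 27.9 in spleen (-4.204 ± 0.11), and Cd4 with a smaller difference (-3.13 ± 0.13). Cd4 is also transcribed in some myeloid cells. The smallest difference was that of Foxp3, the factor of regulatory T cells, with 2.96, 3.32, 3.697 and 3.34 scaled FPKM in marrow, against 5.301, 6.03, 5.47 and 4.94 in spleen (-0.69 ± 0.11, adjusted p = 0.000384). Other genes that regulatory and activated T cells share differed more, Ctla4 by -3.43 ± 0.37 and Icos by -3.85 ± 0.28. T cell receptor genes took 0.00419 ± 0.00048% of fragments in marrow and 0.0775 ± 0.0061% in spleen (SD, n = 4 each, exact permutation test, two-sided p = 0.0286, adjusted p = 0.0407).

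Natural killer and cytotoxic genes were lower for 16 of 17 (median -2.51). Ncr1, an activating receptor of NK cells, had 1.78, 1.51, 1.66 and 1.72 scaled FPKM in marrow, against 13.4, 10.95, 12.9 and 13.3 in spleen (-2.85 ± 0.103). Prf1, the pore-forming perforin, had 1.59, 1.43, 1.69 and 1.49 scaled FPKM in marrow, against 17.9, 12.96, 14.9 and 18.5 in spleen (-3.28 ± 0.13). Gzma, a granzyme, differed by -3.11 ± 0.15. Nkg7, a granule membrane protein, was the exception, with 39.2, 51.4, 41.1 and 45.3 scaled FPKM in marrow, against 57.5, 45.8, 53.1 and 51.8 in spleen (-0.24 ± 0.11, adjusted p = 0.0749). Its libraries overlapped.

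Of 16 conventional dendritic cell genes, 6 were higher and 6 lower (median -0.11), and of 14 plasmacytoid dendritic cell genes 5 were higher and 5 lower (median -0.14). These shares lie near those of all genes tested, 33.9% higher and 31.6% lower, so they set neither list apart. Among the lower ones, Xcr1, the chemokine receptor of the cross-presenting subset, had 0.0512, 0.101, 0.139 and 0.0558 scaled FPKM in marrow, against 0.9753, 0.505, 0.856 and 0.516 in spleen (-2.101 ± 0.25). Itgax (CD11c) differed by -1.48 ± 0.12. The higher ones included Sirpa, an inhibitory receptor also found on monocytes and neutrophils (1.399 ± 0.15), and Clec10a, a lectin (1.68 ± 0.17). Siglech, a surface marker of plasmacytoid cells in the mouse, had 13.2, 14.01, 13.9 and 13.7 scaled FPKM in marrow, against 5.304, 4.21, 4.47 and 4.88 in spleen, and was higher (1.53 ± 0.091, adjusted p = 1.29e-06). Tlr9, which senses DNA and is also made by B cells, was lower (-1.16 ± 0.12), while Irf8, a factor of dendritic cell and monocyte fate, was not called (-0.046 ± 0.13, adjusted p = 0.759).

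All 10 MHC class II presentation genes were lower in marrow (median -2.75). H2-Aa (ENSMUSG00000036594, chr17:34282744-34287823, minus strand), the alpha chain of I-A, had 63.02, 85.8, 77.1 and 70.8 scaled FPKM in marrow, against 511, 474, 531 and 522 in spleen (-2.79 ± 0.104, adjusted p = 1.48e-07). Cd74, the invariant chain that guards the peptide groove, had 285, 396, 384 and 322 scaled FPKM in marrow, against 2206, 2215, 2331 and 2299 in spleen (-2.72 ± 0.13). Ciita, the coactivator that switches the whole set on, had 3.31, 2.12, 1.84 and 1.83 scaled FPKM in marrow, against 35.8, 22.7, 27.03 and 23.3 in spleen, and the largest difference of the list (-3.54 ± 0.21). H2-Ob (-3.16 ± 0.11) and H2-DMb2 (-3.07 ± 0.12), of the peptide-editing complexes, differed more than their partners H2-Oa (-2.71 ± 0.13) and H2-DMa (-1.22 ± 0.12) in estimate, a comparison that was not tested. H2-DMa had 25.1, 28.4, 33.5 and 24.8 scaled FPKM in marrow, against 72.8, 56.1, 68.4 and 63.6 in spleen, the smallest difference. The list held 0.0951 ± 0.0114% of fragments in marrow and 0.736 ± 0.012% in spleen (SD, n = 4 each). H2-DMb1 and H2-DMb2 are close copies, so their values are uncertain.

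Class II promoters are known for a shared X and Y box, through which CIITA acts. The Y box letters TGATTGG were found on either strand in 6 of the 7 class II genes with a RefSeq promoter window, and in 9.0% of 27025 genes. The X box core AGNAAC was found in 5 of the 7, but in 51.9% of all genes, so these short letters are common. TGATTGG contains the reverse complement of CCAAT, so each Y box match is also a CCAAT match. CCAAT itself was in 7 of the 7, against 41.1% of all genes. The 120 bases before the start are shown for the 6 genes with a Y box, since these genes were lower together, with Y box matches and the X box cores of the same strand in capitals.
H2-Aa, chr17:34287824-34287943, minus strand: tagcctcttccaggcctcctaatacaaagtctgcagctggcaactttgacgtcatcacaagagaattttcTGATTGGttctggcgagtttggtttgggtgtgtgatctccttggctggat
H2-Eb1, chr17:34305747-34305866, plus strand: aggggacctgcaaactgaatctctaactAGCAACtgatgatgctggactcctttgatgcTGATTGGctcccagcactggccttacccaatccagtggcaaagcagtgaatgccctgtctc
H2-DMb1, chr17:34153071-34153190, plus strand: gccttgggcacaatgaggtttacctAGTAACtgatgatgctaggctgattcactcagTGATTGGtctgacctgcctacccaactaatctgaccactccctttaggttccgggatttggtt
H2-DMb2, chr17:34145129-34145248, plus strand: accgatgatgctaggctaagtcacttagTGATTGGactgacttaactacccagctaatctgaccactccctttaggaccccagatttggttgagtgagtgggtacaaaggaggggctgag
H2-Oa, chr17:34092259-34092378, plus strand: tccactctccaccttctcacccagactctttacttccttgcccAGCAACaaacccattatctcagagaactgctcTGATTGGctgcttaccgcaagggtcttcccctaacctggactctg
H2-Ob, chr17:34238785-34238904, plus strand: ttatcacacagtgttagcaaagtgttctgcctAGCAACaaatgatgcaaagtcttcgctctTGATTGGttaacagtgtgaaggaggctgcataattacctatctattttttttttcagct
The first base of the Y box lay 45 (H2-Oa), 50 (H2-Aa), 59 (H2-Ob), 61 (H2-Eb1), 63 (H2-DMb1) and 92 (H2-DMb2) bases before the start. The windows start at annotated ends of transcripts, which were not checked against these libraries.

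Of 30 homing receptor genes, 8 were higher and 14 lower (median -0.30), where 33.9% of all genes tested were higher and 31.6% lower. S1pr1 (ENSMUSG00000045092, chr3:115710433-115715072, minus strand) had 6.49, 4.82, 5.05 and 4.98 scaled FPKM in marrow, against 60.6, 53.7, 56.6 and 56.9 in spleen (-3.402 ± 0.103, adjusted p = 5.19e-08). Ccr7 had 4.04, 5.55, 3.904 and 4.61 scaled FPKM in marrow, against 62.3, 80.4, 67.5 and 76.2 in spleen (-3.96 ± 0.13). Both guide lymphocytes, as do Cxcr5, which leads B cells to follicles (-3.53 ± 0.11), Ccr6 (-4.12 ± 0.12) and Gpr183 (-2.198 ± 0.12), which were lower as well. Higher in marrow were receptors of myeloid cells, Ccr1 (3.21 ± 0.14), Cxcr2 and Ccr2, and the integrin chains Itgam (2.93 ± 0.15) and Itgb2 (1.45 ± 0.11) of Mac-1. S1pr4, another receptor for sphingosine 1-phosphate, had 38.9, 37.99, 37.1 and 32.6 scaled FPKM in marrow, against 40.04, 37.04, 38.3 and 40.01 in spleen and was not called (-0.085 ± 0.076, adjusted p = 0.342). Itga4, the alpha 4 integrin chain that binds VCAM-1, was lower (-0.99 ± 0.102).

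Cxcr4 (ENSMUSG00000045382, chr1:128588199-128592293, minus strand) had 261, 258, 284 and 248 scaled FPKM in marrow, against 152, 178, 154 and 162 in spleen. All marrow libraries were above all spleen libraries, by a log2 difference of 0.702 ± 0.083 (adjusted p = 7.65e-05). Its ligand Cxcl12 had 3.29, 4.42, 1.52 and 1.99 scaled FPKM in marrow, against 0.0261, 0.0642, 0.114 and 0.0822 in spleen (3.99 ± 0.32, adjusted p = 7.06e-06), levels that are low in these CD45+ cells. Cxcl13, the follicular chemokine for B cells, was at 0 in all 4 marrow libraries and had 1.05, 3.85, 0.688 and 0.974 scaled FPKM in spleen. Marrow was at least 32.4-fold lower when set to 3 reads over the group. Cxcl13 passed the filter on reads through spleen alone and so had to differ, and its value is a description. Of 15 chemokine and niche ligand genes tested, 5 were higher, near the 33.9% of all genes, and 8 lower, against 31.6% (median -1.34). The median was -0.10 to -0.24, and 5 genes were lower, when any 1 spleen library was left out, which left 12 genes tested. Cxcl2, a neutrophil chemokine, was called higher (2.78 ± 0.87, adjusted p = 0.0194) although its libraries ranged widely, with 0.552, 11.4, 1.46 and 4.24 scaled FPKM in marrow, against 0.103, 1.09, 0.139 and 0.298 in spleen, and it was not called without spleen replicate 5 (adjusted p = 0.0507). Replicate 6 was the highest library of either tissue for it. Of 13 stromal and endothelial genes tested, 8 were higher, among them Acta2, smooth muscle actin (3.26 ± 0.26), and Col1a1, the collagen of bone (2.38 ± 0.14), and 1 lower, Stab2, a scavenger receptor of sinus endothelium (-1.99 ± 0.24). Without marrow replicate 6, 7 or 8, 5 of 11 were higher. Their levels were low, below 6 scaled FPKM in every library, and as a list they held 0.00506 ± 0.00075% of fragments in marrow and 0.00485 ± 0.0012% in spleen (SD, n = 4 each, exact permutation test, two-sided p = 0.771). Whether non-leukocytes in the sort had a part in the Cxcl12 level was not tested.

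Of 39 lineage-determining transcription factors, 10 were higher in marrow and 24 lower (median -1.16). Cebpe, which drives secondary granule genes, had 107, 79.2, 92.7 and 72.9 scaled FPKM in marrow, against 8.799, 3.39, 6.22 and 8.46 in spleen (3.77 ± 0.28). Spi1 (PU.1), needed by myeloid and B cells, had 121, 119, 126 and 102 scaled FPKM in marrow, against 36.7, 25.8, 26.3 and 30.2 in spleen (1.98 ± 0.12). Bcl11b, which commits cells to the T lineage, had 0.619, 0.631, 0.619 and 0.674 scaled FPKM in marrow, against 14.2, 14.4, 12.4 and 14.4 in spleen (-4.24 ± 0.099). Klf2, the factor that sustains S1pr1 in lymphocytes, had 58.4, 56.98, 65.5 and 52.7 scaled FPKM in marrow, against 149, 102, 118 and 117 in spleen (-1.05 ± 0.12). Runx1, used across the blood lineages, was near even and not called (0.019 ± 0.11, adjusted p = 0.884).

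Glucocorticoid-induced genes did not follow 1 direction between tissues. Of 21 tested, 11 were higher in marrow and 6 lower (median 0.65), where 33.9% of all genes tested were higher and 31.6% lower. Tsc22d3 (GILZ), a mediator of glucocorticoid action, had 48.9, 55.4, 54.7 and 50.04 scaled FPKM in marrow, against 85.7, 106, 89.8 and 101 in spleen, and was lower (-0.87 ± 0.089). Ddit4, an inhibitor of mTORC1, had 40.8, 57.2, 55.7 and 46.5 scaled FPKM in marrow, against 140.4, 159.6, 159 and 178 in spleen (-1.68 ± 0.12). Il7r, the interleukin 7 receptor of lymphocytes, was lower by more (-2.57 ± 0.11), whereas Il1r2, a decoy receptor carried by neutrophils (3.02 ± 0.23), and Anxa1, an abundant neutrophil protein (3.68 ± 0.27), were higher. Fkbp5, a chaperone that restrains the receptor, had 54.5, 62.96, 61.5 and 53.99 scaled FPKM in marrow, against 44.9, 51.1, 54.2 and 57.9 in spleen, and was not called (0.17 ± 0.097, adjusted p = 0.157); without TMM scaling its difference was -0.07. Per1, of the circadian clock, varied within both tissues, with 16.4, 39.3, 26.6 and 34.5 scaled FPKM in marrow, against 11.9, 32.7, 15.6 and 24.4 in spleen (0.496 ± 0.35, adjusted p = 0.238). Replicate 6 was the highest and replicate 5 the lowest library in each tissue for Per1.

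Of 30 type I interferon response genes, 9 were higher and 10 lower, with a median of 0.04. These shares lie near those of all genes tested, 33.9% higher and 31.6% lower. Without TMM scaling 6 were higher and 14 lower (median -0.20), and without spleen replicate 5, 9 were higher and 6 lower. Cmpk2, a mitochondrial nucleotide kinase (1.78 ± 0.203), and the oligoadenylate synthetases Oas3 (1.68 ± 0.22) and Oas2 (1.14 ± 0.19) were higher. Zbp1, a sensor of nucleic acids (-1.21 ± 0.25), was lower. Isg15, a ubiquitin-like protein, had 19.01, 12.1, 35.03 and 30.01 scaled FPKM in marrow, against 33.1, 5.75, 18.7 and 17.04 in spleen (0.497 ± 0.51, adjusted p = 0.411). It and Rsad2 (17.9, 13.7, 37.95 and 40.2 scaled FPKM in marrow, against 31.6, 4.02, 23.4 and 25 in spleen) were lowest in each tissue in the libraries with low haemoglobin, marrow replicates 5 and 6 and spleen replicate 6.

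All 13 mitochondrially encoded genes were lower in marrow (median -0.64), and transcripts of the mitochondrial genome together took 1.06 ± 0.05% of fragments in marrow and 1.91 ± 0.23% in spleen (SD, n = 4 each). mt-Nd2, a subunit of respiratory complex I, had 481, 455, 466 and 500.4 scaled FPKM in marrow, against 898, 1112, 1007 and 972 in spleen (-1.07 ± 0.102). Ribosomal protein genes held 2.96 ± 0.17% of fragments in marrow and 4.84 ± 0.19% in spleen, with no overlap. Both measures can follow RNA quality as well as cell type, and their part in the other differences was not tested. The 10 most abundant genes took 20.6 ± 2.0% of fragments in marrow and 19.2 ± 2.3% in spleen (SD, n = 4 each, exact permutation test, two-sided p = 0.429).

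The same tissue comparison in the mCherry mice shares no library with the one described so far. It called 11746 of 16943 genes (69.3%), 5987 higher (35.3%) and 5759 lower (34.0%). Of these, 5084 (30.0%) also differed by at least 2-fold, 2582 higher (15.2%) and 2502 lower (14.8%). Of the genes tested in both, 9537 were called in both, 86.8% of the calls in hM3Dq mice and 81.2% of those in mCherry mice, and 9526 of them had the same sign. Across the 16404 genes tested in both, which are not independent replicates, the tissue differences correlated at a Pearson r of 0.962 and a Spearman rho of 0.951. Neutrophil secondary granule genes had a median of 4.03 in hM3Dq mice and 4.71 in mCherry mice, T cell genes of -3.73 and -3.70, and MHC class II genes of -2.75 and -2.84 in the same order of groups.

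**Figure D4:**
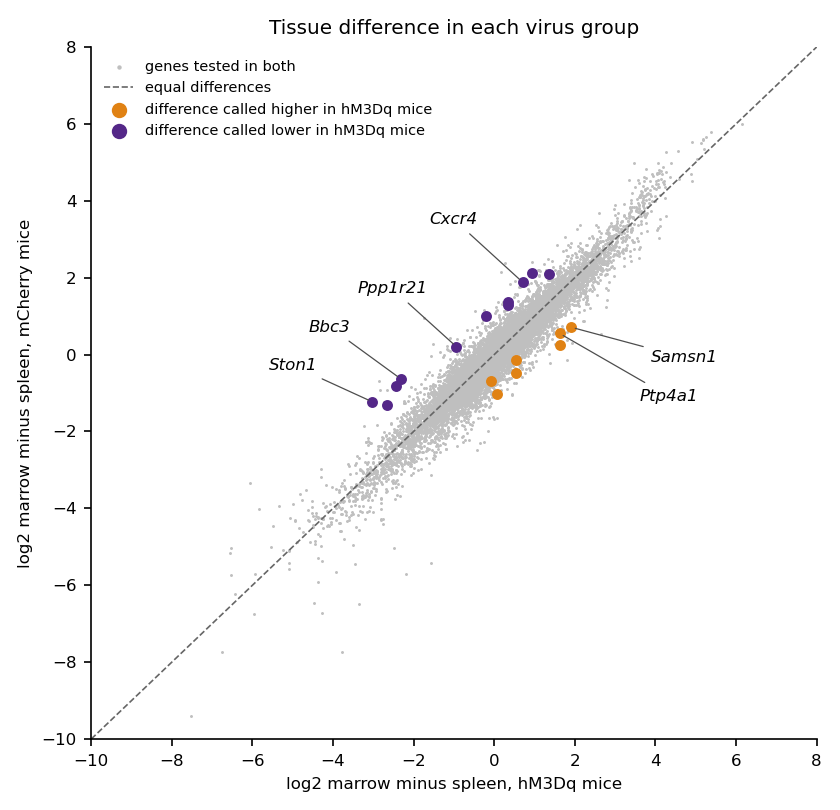
Log2 difference of marrow minus spleen for each gene tested in both virus groups, hM3Dq mice on the horizontal and mCherry mice on the vertical axis, with a dashed line of equal differences. The 18 coloured points are genes whose tissue difference itself differed between virus groups, and most grey points lie along the line.

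The difference between the tissue differences was tested over all 16 libraries, and 18 of 17987 genes (0.1%) were called, 7 with a higher (0.0389%) and 11 with a lower (0.0612%) value in hM3Dq mice; 1601 genes had an unadjusted p below 0.05. Replicate numbers, and any batch that follows them, cannot be told apart from the virus in this test. Cxcr4 had 261, 258, 284 and 248 scaled FPKM in marrow and 152, 178, 154 and 162 in spleen of hM3Dq mice, against 187, 201, 242 and 200 in marrow and 51.03, 60.7, 49.9 and 62.4 in spleen of mCherry mice. Its tissue difference was 0.702 in hM3Dq mice and 1.89 in mCherry mice, which is -1.18 ± 0.13 for hM3Dq minus mCherry (adjusted p = 0.00236). The spleen libraries of the virus groups were further apart than the marrow libraries. Ppp1r21, an endosomal protein, had 15.4, 15.4, 15.4 and 13.9 scaled FPKM in marrow and 24.5, 32.9, 29.03 and 29.5 in spleen of hM3Dq mice, against 12.1, 12.7, 11.8 and 12.2 in marrow and 9.78, 10.2, 11.7 and 10.7 in spleen of mCherry mice (-1.14 ± 0.12, adjusted p = 0.00143). Bbc3, which encodes the death-promoting protein PUMA, had 2.61, 3.19, 3.67 and 4.37 scaled FPKM in marrow and 15.99, 17.2, 16.1 and 20.3 in spleen of hM3Dq mice, against 3.62, 3.88, 3.72 and 3.72 in marrow and 5.44, 7.33, 6.04 and 4.86 in spleen of mCherry mice (-1.68 ± 0.21, adjusted p = 0.00426). These 3 were called in all 24 other settings tried, with a lower value in hM3Dq mice in each.

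In the other direction, Ptp4a1, a phosphatase anchored to membranes, had 11.4, 17.1, 13.1 and 12.95 scaled FPKM in marrow and 4.25, 4.11, 4.12 and 4.84 in spleen of hM3Dq mice, against 5.73, 4.59, 5.39 and 5.57 in marrow and 3.23, 3.62, 3.795 and 3.72 in spleen of mCherry mice (1.07 ± 0.16, adjusted p = 0.0312). Samsn1, an adaptor of B cells and myeloid cells, had 31.6, 48.1, 32.02 and 33.2 scaled FPKM in marrow and 11.01, 8.04, 9.25 and 9.56 in spleen of hM3Dq mice, against 14.8, 17.1, 16.5 and 16.5 in marrow and 9.58, 11.6, 9.56 and 8.95 in spleen of mCherry mice (1.201 ± 0.18, adjusted p = 0.0312). For both, every marrow library of hM3Dq mice was above all libraries of the other 3 groups. Ccnd3, the cyclin D3 of lymphocyte and progenitor division, was higher in marrow in both virus groups, by 1.36 in hM3Dq mice and 2.102 in mCherry mice (-0.74 ± 0.12, adjusted p = 0.0312). The calls of Ptp4a1, Samsn1 and Ccnd3 were lost in several settings that leave out 1 library. The count of 18 ranged from 3 to 36 when single libraries were left out, so it is not a firm number. Among the list members, 2 lists held a gene called here, and it was Cxcr4 in both.

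**Figure D5:**
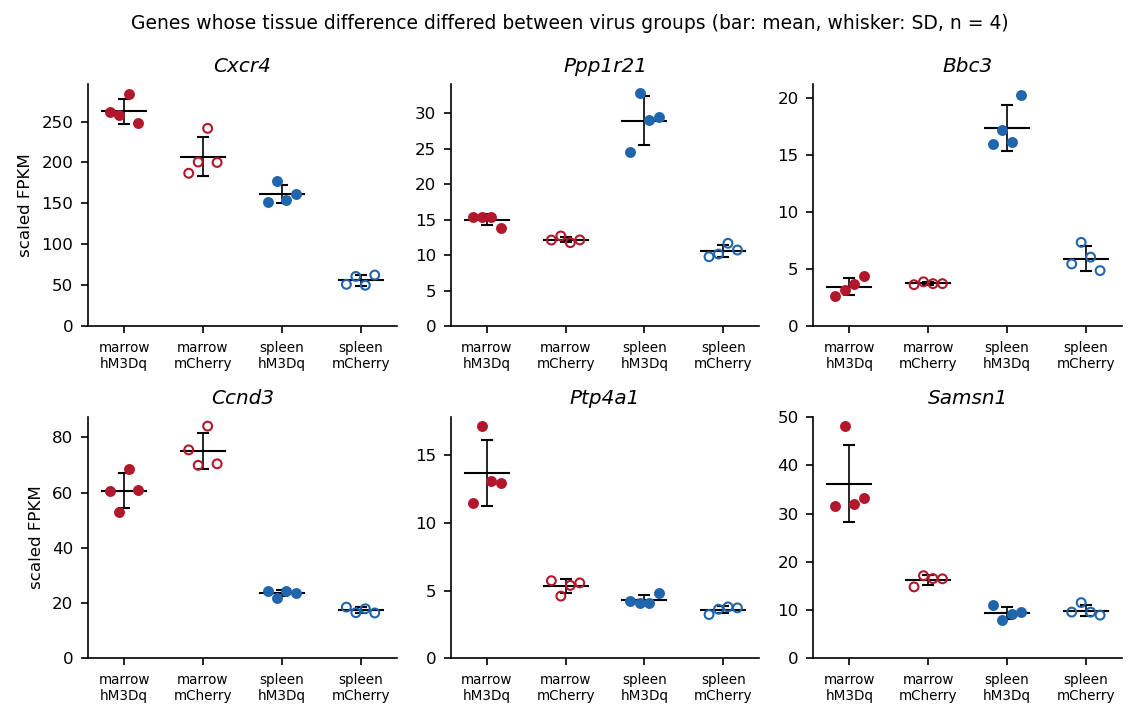
Scaled FPKM in each of the 16 libraries for 6 genes whose tissue difference differed between virus groups, with marrow of hM3Dq mice, marrow of mCherry mice, spleen of hM3Dq mice and spleen of mCherry mice left to right, and the mean (bar) and SD (whisker) of 4 libraries. For Cxcr4, Ppp1r21 and Bbc3 the spleen groups lie far apart, and for Ptp4a1 and Samsn1 the marrow groups do.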

How the data were processed

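The deposited values were FPKM for 49585 Ensembl genes in each of 16 mouse libraries of poly(A) RNA, with no counts beside them. CASAVA 1.9, STAR 2.6.1a, featureCounts and edgeR 3.28.1 are named, per the submitters' processing notes, with GRCm38 as the build. Not given in the sources used here are the annotation release and strand setting, so overlapping and antisense genes cannot be told apart. Symbols and positions came from GENCODE M21, which matched 49326 IDs (99.5%). Reads were recovered from the steps of the FPKM values, which came out whole within 0.01 at the M21 exon length for 27917 of 31954 genes above 0 (87.4%). Another 4031 genes took another length and 6 had none.

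FPKM values were divided by TMM factors computed over all 16 libraries. Genes with at least 10 recovered reads in at least 4 libraries of a fit were tested on log2(scaled FPKM + 0.1) with limma 3.58.1 (R 4.3.3), moderated with an intensity trend, two-sided, with Benjamini-Hochberg adjustment over all genes tested. Fold changes on this scale understate those of low genes. Floors set from reads over a group cover counting error only. Intervals of log2 differences rest on limma's moderated SE, and so on the spread between libraries. Shares of fragments were compared by exact permutation over libraries. In a simulation, gene means came from all 16 libraries and depths from the hM3Dq libraries. The spread added between libraries was fixed and the same for every gene. Of its 16528 genes, 47 of 50 changed by 2-fold and 25 of 50 changed by 1.5-fold were called, with 10 of 16328 unchanged genes. That spread was not taken from these data and the tissues were otherwise alike, so these rates do not carry over to the real comparison. Other software was Python 3.11.15, numpy 2.4.6, pandas 2.3.3, scipy 1.17.1 and matplotlib 3.10.9.

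No library pair within a group agreed within sampling noise (chi-square per degree of freedom 7.29 to 39.33), so all were kept as separate replicates. Since the labels do not tie a library to a mouse, the main fit was unpaired, and its p-values measure the spread between libraries. Alternatives were other scalings, pseudocounts and filters, voom weights on the recovered reads, a replicate block, a fit of all 16 libraries, and the removal of single libraries. Removal of the 3 libraries low in haemoglobin was added after seeing the data.

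Members and lists were chosen with earlier results of these data known. The genes named were to be the 12 higher and 12 lower ones with the largest difference (called, not overlapping, mean of at least 20 scaled FPKM in the higher tissue, without predicted models, pseudogenes and receptor segments), the 6 in each direction of the interaction with the smallest p, up to 5 members of each list in each direction by p with uncalled members as examples, a panel of 13 homing and glucocorticoid genes, and the 6 most abundant genes of each tissue. Some genes that meet the rule are not reported here. List members outside this rule, such as those with the smallest difference in a list, were named after their values were seen.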

Additional observations from a re-analysis of the deposited data

Results flagged for a closer look

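In 164 groups of 4 libraries, 9 had a library farther from the other 3 than Dixon's 95% critical value allows. Chance gives about 1 in 20 groups, so the total of 9 is near the number that chance alone gives. Spleen replicate 6 accounted for 5 of them, of which Hbb-bs and the haemoglobin and erythroid shares overlap and are not separate measures. It had 541.6 scaled FPKM of Hbb-bs, where the other spleen libraries had 5198 to 5816. Its share of fragments in erythroid genes was 0.201%, where the others had 1.54 to 1.71%, and its share in haemoglobin genes was 0.133%, where the others had 1.17 to 1.33%. The same library had 3.58 scaled FPKM of Fcnb, a ficolin of neutrophil precursors, where the others had 9.45 to 10.1. Its T cell receptor genes took 0.0867% of fragments, where the others had 0.0738 to 0.0750%.

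In marrow, replicate 5 had 6.49 scaled FPKM of S1pr1, where the other marrow libraries had 4.82 to 5.05, still far below every spleen library. Plasma cell genes took 0.129% of its fragments, where the others had 0.151 to 0.154%. Marrow replicate 8 had 0.152% of fragments in mature B cell genes, where the others had 0.204 to 0.208%. Spleen replicate 5 had 2746 scaled FPKM of mt-Co1, a subunit of cytochrome oxidase, where the other spleen libraries had 3336 to 3411.

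The tissue difference itself differed between virus groups for 18 genes by limma's interaction test. Values are log2 differences of marrow minus spleen, hM3Dq minus mCherry. They were lower in hM3Dq mice for Ston1 at -1.79 (adjusted p = 0.0371), Bbc3 at -1.68 (0.00426), Gm7457 at -1.62, Hs3st1 at -1.35, Sgk3 at -1.22 (0.0407), Cxcr4 at -1.18 (0.00236), Rab27a at -1.17, Ppp1r21 at -1.14 (0.00143), Pde2a at -1.03, Gm45837 at -0.95 and Ccnd3 at -0.74. They were higher for Rfx1 at 0.60, Tank at 0.68, Gm13767 at 1.02, Ptp4a1 at 1.07, C330011M18Rik at 1.09, Samsn1 at 1.20 and Pla2g3 at 1.37. The adjusted p was 0.0312 where none is given. Pde2a overlaps Gm45837 on the same strand, and C330011M18Rik overlaps Rfx1 on the other strand. These entries may share reads, so the 18 need not be separate genes.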

How the results depend on the processing

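The count of genes called between tissues in hM3Dq mice stayed within 1.5 times of 10984 in 18 other settings (9364 to 12180), and that in mCherry mice within 1.5 times of 11746 in 16 others (10251 to 13048). Counts with a 2-fold difference moved under a pseudocount of 1, to 2966 in hM3Dq mice and 3209 in mCherry mice, because a larger pseudocount shrinks the folds of low genes. Without TMM scaling 36.9% of the calls were higher in marrow, against 51.8% with it.

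The count of 18 genes in the interaction moved to 11 without scaling, 80 with a pseudocount of 1, 29 with voom on the recovered reads and 9 with the replicate block, and ranged from 3 to 36 without single libraries. It was 3 without spleen replicate 6 or 7 of hM3Dq mice or spleen replicate 1 or 4 of mCherry mice, and 36 without spleen replicate 5 of hM3Dq mice; the cause was not tested. Libraries of the same replicate number deviated together at correlations of 0.06, 0.39, 0.27 and 0.19 in hM3Dq mice and 0.05, 0.07, 0.06 and 0.13 in mCherry mice. Marrow replicates 6, 7 and 8 of hM3Dq mice and all marrow replicates of mCherry mice correlated best with their own number. Marrow replicate 5 of hM3Dq mice correlated best with spleen replicate 6 (0.12). The labels do not tie the numbers to mice, so the main fit left the samples unpaired, and a true pairing is possible. With the block, 11225 genes were called in hM3Dq mice and 11336 in mCherry mice, 22 of 32 erythroid genes were called, and Per1 was called.

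Of 227 genes followed, 202 kept direction and call in every setting. In some settings 10 lost the call, 10 uncalled genes gained it and 8 changed sign. Sign changes concerned uncalled genes and list medians. Without scaling the changed values were Xbp1 (-0.021), Fkbp11 (-0.13), Ighg1 (-0.068), Cd53 (-0.18), Fkbp5 (-0.074), Nr3c1 (-0.23) and the interferon median (-0.20). With median of ratios scaling it was Nr3c1 (-0.027). Without the 3 libraries low in haemoglobin, a setting chosen after seeing the data, they were Cd53 (-0.063), Nr3c1 (-0.098) and the interferon median (-0.23). With libraries left out, values ranged from -0.125 to 0.60 for Cd36, from -0.072 to 0.305 for Fkbp11, from -0.22 to 0.502 for Ighg1, from -0.063 to 0.119 for Cd53, from -0.098 to 0.069 for Nr3c1 and from -0.047 to 1.26 for Hbb-bs. The interferon median ranged from -0.23 to 0.18 and the conventional dendritic cell median from -0.27 to 0.060, and that median was 0.13 with a filter of mean FPKM 1. The number of lists with more members higher than lower was 14 to 17, against 15 of 31, and 26 to 32 of 37 shares did not overlap, against 26. With a pseudocount of 1, list medians fell to 2.12 for pro-B and pre-B, 1.11 for stem and progenitor, 0.96 for megakaryocyte, 0.42 for stroma and -0.63 for chemokine genes. With a filter of mean FPKM 1, 4 stromal genes were tested (median 0.14). Depth limits genes near 10 reads.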

Other observations

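The most abundant named transcripts in marrow were S100a9, S100a8, Ngp, Hbb-bs, Hba-a1 and Igkc, by mean scaled FPKM. Of these, Hbb-bs, Hba-a1 and Igkc were not called between the tissues. S100a8, the partner of S100a9 in calprotectin, had 13800, 12260, 11610 and 9598 scaled FPKM in marrow, against 1041, 407, 737 and 885 in spleen (4.01 ± 0.29). Ngp, a neutrophil granule protein, had 11500, 11410, 11870 and 9873 scaled FPKM in marrow, against 885, 355, 707 and 889 in spleen (4.06 ± 0.29). Igkc, the constant region of the kappa light chain, had 3911, 5405, 5266 and 4216 scaled FPKM in marrow, against 7710, 5955, 7850 and 4992 in spleen, with marrow replicates 6 and 7 above spleen replicate 8, and was not called (-0.49 ± 0.23, adjusted p = 0.0925).

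Some entries of high FPKM in marrow or spleen are microRNA hairpins that lie inside longer genes on the same strand. Mir5121, an entry of 74 bases within Rpl13a, had 2934, 3641, 3693 and 3556 scaled FPKM in marrow, against 6298, 5996, 5720 and 6516 in spleen. Mir705, of 82 bases within Rab11fip5, and Mir7058, of 75 bases within Lat, met the size rule for named genes, with log2 differences of 4.41 ± 0.95 and -4.46 ± 0.602. Poly(A) RNA does not hold the mature microRNA, and reads of the hairpin and of its host cannot be told apart here, so these values say nothing of the microRNA. Olfm4, a secreted neutrophil granule protein, also met the rule, with 70.3, 86.3, 67.1 and 65.2 scaled FPKM in marrow, against 4.08, 1.65, 2.63 and 4.34 in spleen (4.55 ± 0.27).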
